A study of Homo sapiens with 21 samples.

Results

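HCT-116 cells, a human colorectal carcinoma line of epithelial-like cells, that had been given extracellular vesicles (EVs) of the source labelled HCC- at 0.048 mg/mL were compared with blank control cells that had been given no EVs. The 6 libraries compared, 3 per group, were taken by their labels from a series of 21 libraries of poly(A) RNA in 7 groups. The other groups had been given HCC- EVs at 0.24 or 1.2 mg/mL, or EVs labelled HCC+ at 0.048, 0.24 or 1.2 mg/mL. The labels name serum of HCC patients and of healthy people as the sources of the EVs, and the series text sets the former against the latter; all 7 groups share the cell line and a medium whose serum had been depleted of exosomes. One cell line was used, the sources used here do not give the length of the exposure or the number of serum donors, and the labels do not say whether replicates were separate cultures. The p-values therefore measure only the spread between these libraries, which may be technical.

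EVs are membrane-bound particles that carry proteins, lipids and RNA of the cell that released them. Recipient cells take them up mainly by endocytosis, and their cargo can then be degraded in lysosomes or act on signalling and gene expression. In RNA-seq, fragments rich in G and C and fragments rich in A and T can be copied with unequal efficiency, which is why the counts of each library were also set against the GC content of the genes.

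Of 65065 genes listed, 19556 had enough counts to be tested, and each library of the 2 groups held between 31219343 and 48639032 counts. Epithelial keratins and adhesion genes were high in all 6 libraries: KRT8 was at 2043 to 2799 CPM (a gene's counts scaled to the size of its library, with TMM factors) and EPCAM, an epithelial adhesion protein, at 259.7 to 314.0 CPM. Of the marker genes of HCT-116 cells that were looked up, CEACAM5 had 0 counts and LGALS4, a galectin of the gut epithelium, had at most 14 counts in any of the 6 libraries. Blank replicate 1 stood apart from the rest on the first principal component of these libraries and the other low-dose libraries (12.1% of the variance), at 80 against -10.3 to -1.13.

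With HCC- EVs at 0.048 mg/mL, 3216 genes differed from the blank at an adjusted p under 0.05 (edgeR's quasi-likelihood test, Benjamini-Hochberg adjustment), which is 16.4% of the genes tested. Of these 1620 rose (8.28%) and 1596 fell (8.16%). The changes were small: the median size among called genes was 0.308 on the log2 scale, and 42 rising and 33 falling genes changed by at least 1 on that scale. For 2707 of the called genes the 3 treated and the 3 blank libraries did not overlap; over all genes tested this held for 5390.

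The genes that rose and those that fell differed in base composition. The median GC content was 60.5% for the genes that rose, 41.7% for those that fell and 50.2% for those not called. When the tested genes were split into 10 bins of equal size by GC content, 574 of 1950 fell in the lowest bin (26.8% to 40.6%) and 4 rose, with a median log2 fold change of -0.283. In the highest bin (61.9% to 83.9%) 609 of 1950 rose and 1 fell, with a median of 0.275. Across genes, which are not independent replicates, Spearman's rho between the log2 fold change and GC content was 0.534. The genes that fell were also longer, with a median of 6514 exon bases against 4058 for the genes that rose.

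Stretches of coding exon show the composition of genes at both ends of this range and of 2 genes that were called with and without a correction for it. Each is the 90-base window of the longest coding exon whose GC content is nearest to that of its gene, 5′ to 3′ on the coding strand, from the GENCODE v29 transcripts on GRCh38, with G and C in capitals. Their values were known when these genes were chosen. The first 3 fell against the blank and are AT-rich: CEP290, a protein of the ciliary transition zone (chr12:88089152-88089241, 34.4% GC), ROCK1, a kinase of the actin cytoskeleton (chr18:20954946-20955035, 36.7% GC), and NIPBL, a loader of cohesin (chr5:36984807-36984896, 40% GC).
CEP290: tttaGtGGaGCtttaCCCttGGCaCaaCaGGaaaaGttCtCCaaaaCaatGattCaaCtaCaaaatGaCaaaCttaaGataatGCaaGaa
ROCK1: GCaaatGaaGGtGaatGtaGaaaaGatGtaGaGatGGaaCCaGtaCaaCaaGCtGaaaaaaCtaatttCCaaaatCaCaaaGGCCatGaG
NIPBL: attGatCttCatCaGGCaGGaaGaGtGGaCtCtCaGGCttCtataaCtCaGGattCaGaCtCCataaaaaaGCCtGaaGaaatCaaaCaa

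The next 3 rose against the blank and are GC-rich: HSPB1, a small heat shock protein (chr7:76302968-76303057, 64.4% GC), NDUFB7, a subunit of respiratory complex I (chr19:14566844-14566933, 64.4% GC), and SDF2L1, a chaperone cofactor of the endoplasmic reticulum (chr22:21643903-21643992, 66.7% GC).
HSPB1: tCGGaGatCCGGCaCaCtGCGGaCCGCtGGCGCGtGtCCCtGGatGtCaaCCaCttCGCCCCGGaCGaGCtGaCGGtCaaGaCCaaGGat
NDUFB7: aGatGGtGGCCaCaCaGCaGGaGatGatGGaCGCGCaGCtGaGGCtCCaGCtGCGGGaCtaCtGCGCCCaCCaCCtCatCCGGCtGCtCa
SDF2L1: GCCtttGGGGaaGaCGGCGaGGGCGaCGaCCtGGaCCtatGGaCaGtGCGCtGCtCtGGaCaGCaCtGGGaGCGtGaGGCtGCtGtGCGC

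The last 2 are CDK2AP1, an inhibitor of the cell cycle kinase CDK2 (chr12:123265208-123265297, 55.6% GC in the window and 50.1% in the gene), which fell, and CYP51A1, the lanosterol demethylase of cholesterol synthesis (chr7:92123171-92123260, 40% GC), which rose although it is AT-rich.
CDK2AP1: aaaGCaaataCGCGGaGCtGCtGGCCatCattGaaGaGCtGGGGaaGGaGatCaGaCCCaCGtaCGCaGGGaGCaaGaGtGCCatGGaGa
CYP51A1: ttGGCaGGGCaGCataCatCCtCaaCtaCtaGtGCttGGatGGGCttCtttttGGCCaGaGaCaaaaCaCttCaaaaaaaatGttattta

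Each library was checked for a trend with GC content by setting its log2 CPM against the mean of the 15 blank and lower-dose libraries. Spearman's rho across genes was 0.375, 0.414 and 0.426 in the 3 HCC- 0.048 mg/mL libraries, the highest values of the 15. The blank libraries gave -0.439, 0.275 and -0.373, so replicate 2 of the blank lay on the side of the treated libraries and replicates 1 and 3 on the other side. The group means were 0.405 ± 0.027 and -0.179 ± 0.394 (SD, n = 3 each), a difference of 0.584 with an exact 2-sided permutation p of 0.1, the smallest that 3 libraries against 3 can give. The groups did not overlap, and the spread among the blank libraries was larger than that among the treated libraries.

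The same trend can be read as shares of all counts. Genes of the lowest GC bin took 5.56%, 5.38% and 5.55% of the CPM in the treated libraries and 7.23%, 5.89% and 7.001% in the blank libraries. Genes of the highest GC bin took 7.28%, 7.32% and 7.44% in the treated and 5.44%, 6.89% and 5.82% in the blank libraries. The groups did not overlap in either share, and blank replicate 2 was the nearest to the treated libraries in both.

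**Figure D1:**
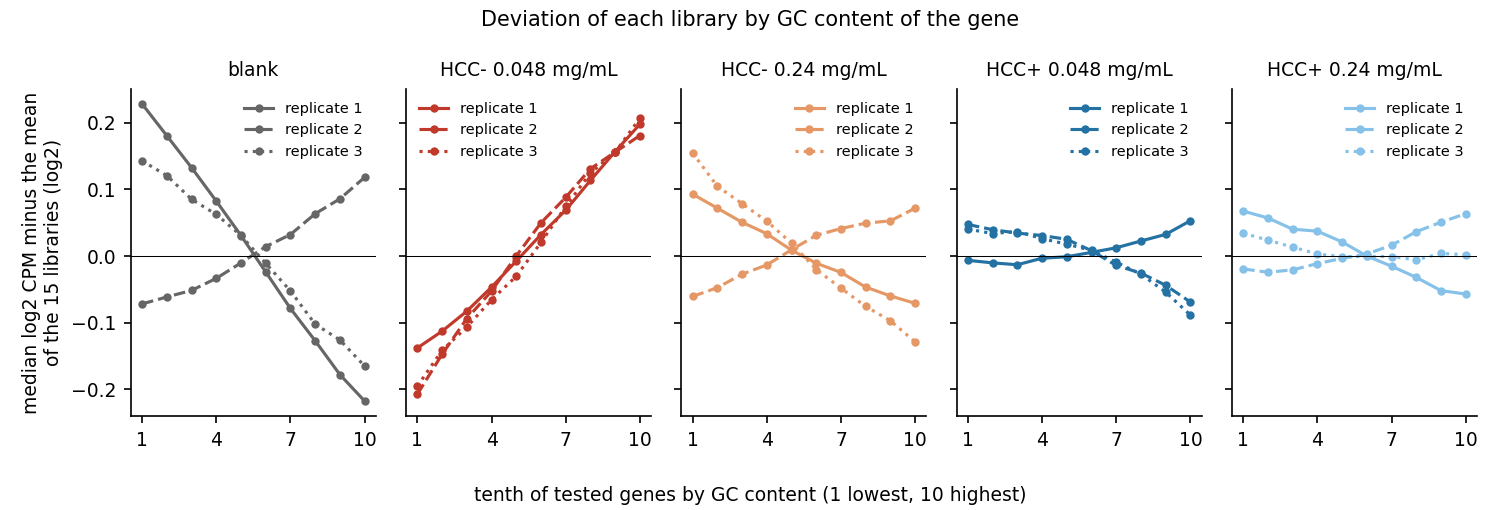
Median deviation of log2 CPM from the mean of 15 libraries (y axis, log2) in each of 10 bins of tested genes by GC content (x axis), with 1 line per library and 1 panel per group of the blank and lower doses. The 3 HCC- 0.048 mg/mL libraries rise from the lowest to the highest bin (by 0.336, 0.389 and 0.403), while blank replicates 1 and 3 fall (by -0.447 and -0.308) and blank replicate 2 rises by 0.19.

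A second fit took out, for each library, its smooth trend with GC content and gene length as offsets. This removes any difference that follows GC content or length, whatever its source. With the offsets, rho of each library lay between -0.024 and 0.03, rho of the log2 fold change with GC content was -0.024, and 48 genes were called (0.245% of those tested), of which 14 rose (0.0716%) and 34 fell (0.174%). At an unadjusted p under 0.05 there were 2396 genes with the offsets and 6081 without. Of the 48, 31 were among the 3216 genes called without offsets and kept their direction, 8 rising and 23 falling. They were 64.6% of the calls with offsets and 0.964% of those without. Among the 3216, the median size of the change went from 0.308 to 0.085, 88.2% kept their sign, and 107 kept at least 90% of their change. Whether the trend arose in the cells or in the preparation and sequencing of the libraries was not tested.

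**Figure D2:**
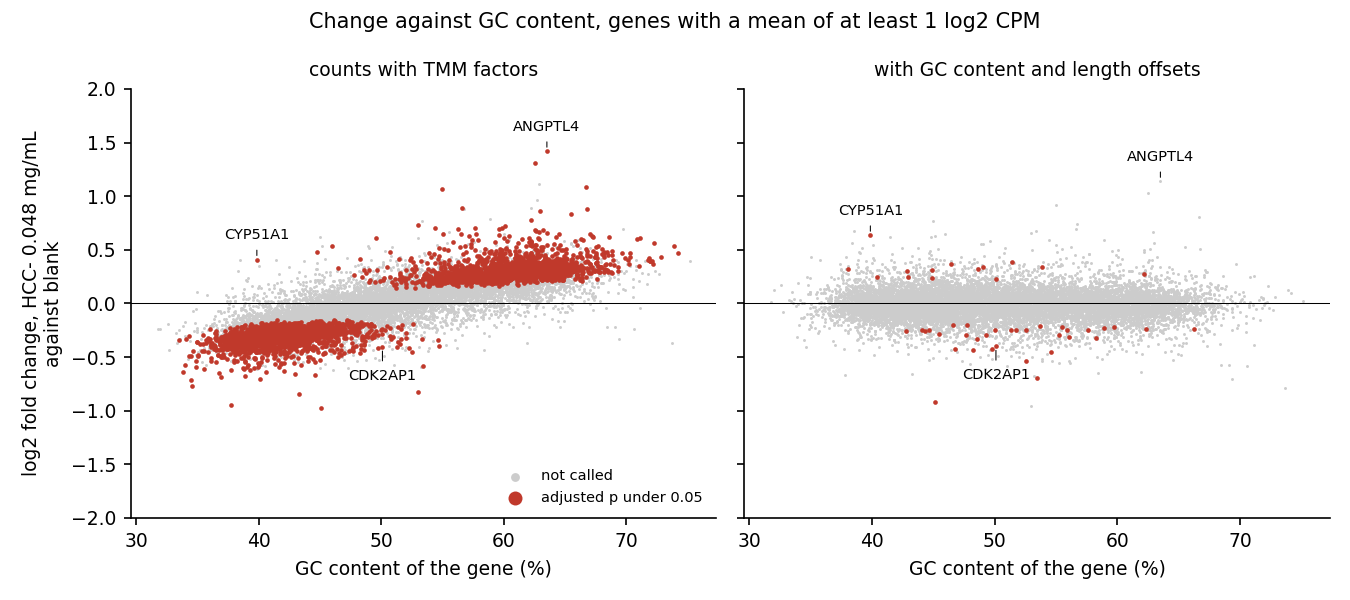
Log2 fold change of HCC- 0.048 mg/mL against blank (y axis) by GC content (x axis, percent) for genes that averaged 1 log2 CPM or more, without (left) and with (right) GC content and length offsets; red points were called. The tilt from low to high GC content (rho 0.534 on all tested genes) is gone on the right (rho -0.024), where ANGPTL4 stays high without passing the test and CDK2AP1 and CYP51A1 remain called.

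The number of called genes rested on single libraries. Without blank replicate 1 the test called 1 gene (3890 at an unadjusted p under 0.05), and without blank replicate 3 it called 12. Without blank replicate 2, the blank library whose GC trend ran with the treated ones, it called 5726. Leaving out a treated library gave 1511, 706 and 1830 calls. With the offsets the same fits gave 2, 6 and 446 calls without blank replicates 1, 3 and 2, and 3, 4 and 81 without treated replicates 1, 2 and 3. Over all 41 gene lists, not all of which are described here, 167 members were called with all libraries. Without blank replicate 1 or without blank replicate 3, 0 were called. Of the 3216 genes, 2316 kept their sign in all 21 other settings.

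**Figure D3:**
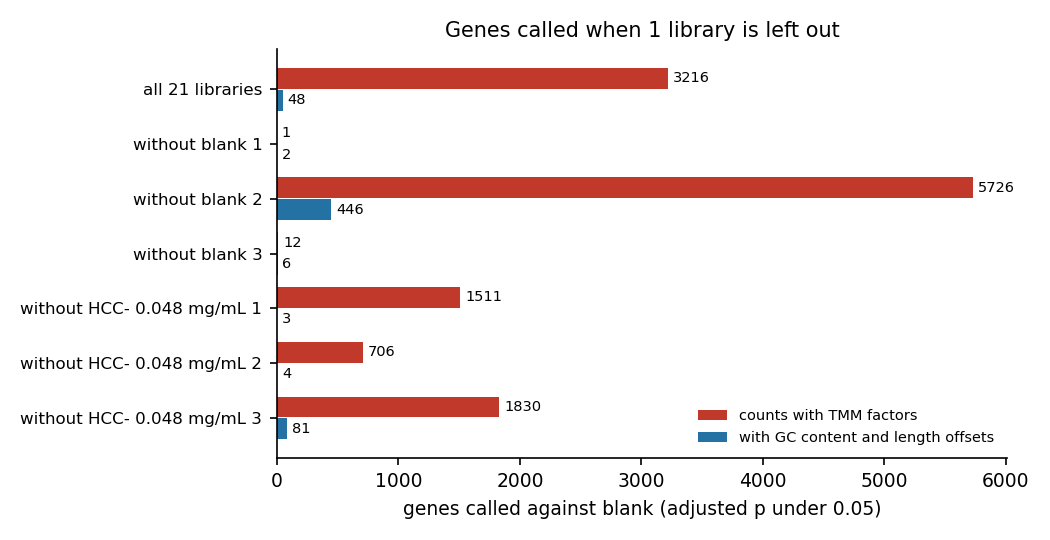
Number of genes called against the blank (x axis) with all libraries and with 1 library of the 2 groups left out (rows), without offsets (red) and with GC content and length offsets (blue). Calls without offsets range from 1 to 5726 and with offsets from 2 to 446.

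CDK2AP1 and a gene without a symbol kept their calls under the most settings. CDK2AP1 encodes a protein that binds and restrains CDK2 and is also a subunit of the NuRD chromatin remodelling complex. It was at 195.6, 151.1 and 171.6 CPM in the blank and at 125.5, 128.3 and 137.5 CPM with HCC- EVs at 0.048 mg/mL. The 3 treated libraries were the lowest of all 21. The log2 fold change was -0.41 ± 0.07 (SE, adjusted p = 0.00451, edgeR) and -0.40 with the offsets (adjusted p = 0.000939), and the gene was called in 20 of 21 other settings. The exception was the fit without blank replicate 1 and without offsets, where the value was -0.31. It was also lower than with HCC+ EVs at 0.048 mg/mL (178.1, 187.3 and 179.1 CPM), with a log2 difference of -0.48 ± 0.07 (adjusted p = 0.00091, edgeR). Against HCC- EVs at 0.24 mg/mL (183.5, 192.4 and 194.7 CPM) the difference was -0.54 ± 0.07 (adjusted p = 0.000127, edgeR). At 1.2 mg/mL of HCC- EVs it was at 241.1, 232.4 and 221.4 CPM, above all 3 blank libraries. CDK2AP1 (chr12:123250112-123272334, GRCh38) shares 24.2% of its exon bases with MTRFR on the other strand, and as the sources used here give no strand setting for the counting, reads of the 2 genes cannot be told apart there; MTRFR itself was not called (-0.07 ± 0.08, adjusted p = 0.616, edgeR).

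The other of the 2 is ENSG00000261542, which has no symbol in the name table used. Its counts were 20, 49 and 58 in the blank and 6, 8 and 2 in the treated libraries, so the groups did not overlap and the level was low throughout. The log2 fold change was -3.12 ± 0.43 (adjusted p = 0.00066, edgeR) and -2.80 with the offsets, and it was called in all 20 of the other settings that gave it an adjusted p; DESeq2 gave none. It was the single gene called in each of the 6 fits without offsets that left out 1 library.

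CYP51A1 rose from 16.2, 19.4 and 17.1 to 24.3, 24.2 and 21.5 CPM, without overlap. The log2 fold change was 0.41 ± 0.09 (adjusted p = 0.00735, edgeR) and 0.63 with the offsets (adjusted p = 0.000939), and it was called in 18 of 21 other settings, with values of 0.35 and 0.39 where blank replicate 1 or 3 was left out and the call was lost. With the offsets and without blank replicate 1 it was not called either. CYP51A1 shares 80.6% of its exon bases with other annotated genes on its strand, so its level is uncertain. It was not called against HCC- 0.24 mg/mL (20.96, 20.19 and 21.85 CPM; 0.15 ± 0.09, adjusted p = 0.265, edgeR).

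Among RNAs of the mitochondrial genome, MT-RNR2, the large ribosomal RNA, fell from 8679, 7525 and 8040 to 6336, 6103 and 5888 CPM. The log2 fold change was -0.40 ± 0.07 (adjusted p = 0.00489, edgeR) and -0.26 with the offsets (adjusted p = 0.009), and it was called in 16 of 21 other settings. MT-ND1, a subunit of complex I, fell from 3709, 3728 and 3415 to 3152, 3071 and 3168 CPM and was called with and without the offsets (-0.21 and -0.20). Of the 13 mitochondrial mRNAs 2 fell without offsets, MT-ND1 and MT-ATP6 (-0.23 ± 0.07), none rose, and the median was -0.097. Over all genes tested 8.16% fell and 8.28% rose. MT-RNR2 did not differ beyond the test from HCC+ 0.048 mg/mL (6286, 6818 and 7094 CPM; -0.14, adjusted p = 0.232, edgeR) or from HCC- 0.24 mg/mL (-0.14, adjusted p = 0.194).

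**Figure D4:**
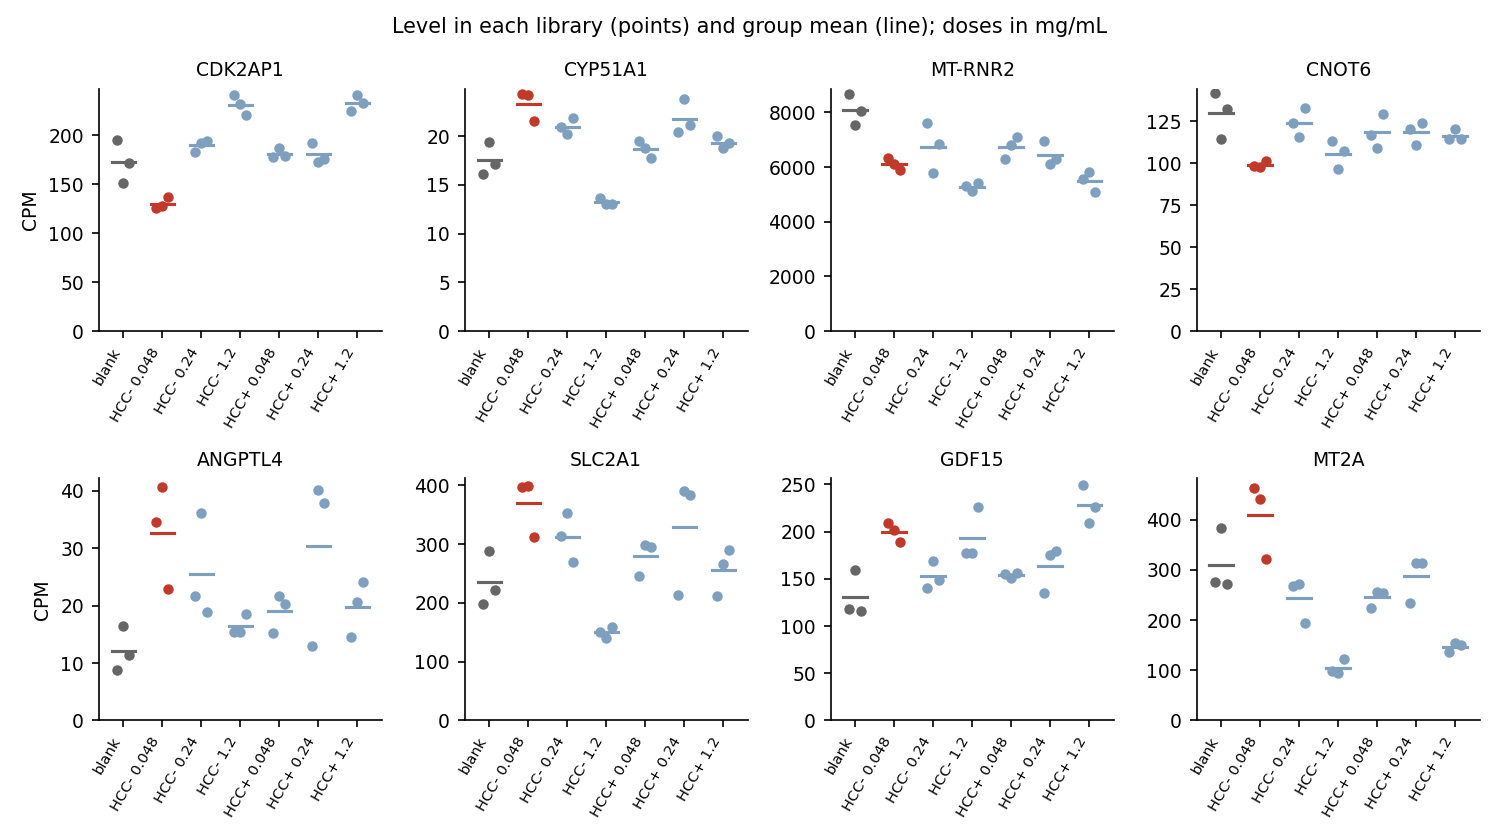
CPM (y axes, from 0) of 8 genes in all 21 libraries (points; x axes, groups with doses in mg/mL) with group means (lines); blank grey, HCC- 0.048 mg/mL red. CDK2AP1 is lowest in the 3 red libraries, while ANGPTL4 and SLC2A1 reach similar levels in 2 of the HCC+ 0.24 mg/mL libraries.

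Further genes called both with and without the offsets had diverse roles; all of them in this paragraph were chosen after their values were seen. Falling were CNOT6 and CNOT8, subunits of the CCR4-NOT complex that shortens poly(A) tails. CNOT6 went from 141.8, 114.5 and 132.3 to 98.5, 97.4 and 101.4 CPM (-0.39 ± 0.08, and -0.33 with the offsets), and CNOT8 fell by 0.25 (-0.25 with the offsets). SDHD, a subunit of succinate dehydrogenase, fell by 0.46 (-0.43 with the offsets), and MPC2, of the mitochondrial pyruvate carrier, fell by 0.41 (-0.43). YEATS4, a reader of acetylated histones, fell by 0.48 (-0.42), ZMPSTE24, the protease that matures lamin A, fell by 0.40 (-0.29), and ARF4, a small GTPase of the Golgi, fell by 0.27 (-0.20). ZNF354A, a zinc finger gene with a GC content of 53.4%, fell from 21.6, 16.7 and 21.9 to 14.4, 11.8 and 14.0 CPM (-0.58, and -0.70 with the offsets).

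Rising were TIMM8B, a chaperone of mitochondrial protein import (0.33, and 0.37 with the offsets), NDUFB2, of complex I (0.31 and 0.34), P4HA2, a collagen prolyl hydroxylase (0.41 and 0.38), AKIRIN2, a nuclear import factor of proteasomes (0.31 and 0.32), SERTAD1 (0.47 and 0.34) and DNPH1, a nucleotide hydrolase (0.58 and 0.27). P4HA2 was at 34.3, 39.7 and 38.03 CPM in the blank and at 49.7, 54.4 and 44.7 CPM in the treated libraries, without overlap. Exons of NDUFB2, TIMM8B and MPC2 overlap a gene on the other strand over 35.1%, 30.1% and 21.8% of their bases.

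A further 17 genes were called only with the offsets. RTN4, a protein that shapes the tubular endoplasmic reticulum, has a GC content of 42.8% and was at 284.9, 286.1 and 280.1 CPM in the blank and 308.3, 303.0 and 310.1 CPM in the treated libraries. Its log2 fold change was 0.11 (adjusted p = 0.12, edgeR) without and 0.31 (adjusted p = 0.011) with the offsets, so its change was higher than that of genes of similar GC content and length. SNRPG, of the spliceosome's Sm core, with 40.4% GC, was at 0.05 without and 0.25 with the offsets. On the GC-rich side the transcriptional repressors ZBTB7A (66.2% GC; 0.06 and -0.24) and SKI (62.3% GC; 0.02 and -0.24) were near 0 without the offsets and were called as falling with the offsets. SKI was at 92.3, 99.0 and 99.5 CPM in the blank and 97.8, 98.7 and 98.9 CPM in the treated libraries, which overlap.

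The list with the largest share of members called as falling was that of large AT-rich cilium, centrosome and motor genes, most of which act on microtubules, chromosomes, membranes or the cytoskeleton. Each of the 17 members tested fell, and their median was -0.386 against 0.001 for all genes tested. In the lowest GC bin 574 of 1950 genes fell, with a median of -0.283. The list was put together with earlier results of these data known and its members share a low GC content (median 38.3%). CEP290 went from 17.6, 14.2 and 19.2 to 12.8, 10.4 and 10.6 CPM (-0.59 ± 0.13, adjusted p = 0.00735, edgeR). ROCK1 went from 105.3, 88.8 and 102.9 to 76.5, 73.2 and 77.6 CPM (-0.39 ± 0.08), and NIPBL from 91.7, 74.0 and 81.2 to 60.6, 65.7 and 63.9 CPM (-0.37 ± 0.07). The groups did not overlap in any of the 3, and blank replicate 2 was the lowest blank library in each. With the offsets the median was -0.104 and edgeR called none of the 17, with 5 at an unadjusted p under 0.05. DESeq2, without offsets, called all 17.

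The GC-rich genes of the sequences printed above went the other way. HSPB1 went from 332.1, 447.6 and 339.4 to 515.9, 489.5 and 450.3 CPM (0.38 ± 0.08, adjusted p = 0.00732, edgeR). NDUFB7 went from 51.6, 62.6 and 50.5 to 77.1, 72.4 and 66.4 CPM (0.39 ± 0.09), and SDF2L1 from 44.1, 65.8 and 51.6 to 78.6, 76.4 and 68.3 CPM (0.47 ± 0.10). In all 3 the highest blank library was replicate 2. With the offsets the values were 0.07, 0.02 and 0.12. Among the most abundant genes of the lowest GC bin, KITLG, the ligand of the KIT receptor, fell by 0.45 ± 0.13 (-0.20 with the offsets), SLC38A2, an amino acid transporter, fell by 0.39 ± 0.12 (-0.12), EIF3E, of the initiation factor eIF3, fell by 0.33 ± 0.07 (-0.04) and CCT6A, of the chaperonin TRiC, fell by 0.19 ± 0.06 (0.05, with its sign turned), while MT-ND3 was not called (-0.23 ± 0.14). Among those of the highest bin, LMNA rose by 0.28 ± 0.06 (0.03), BSG by 0.26 ± 0.06 (-0.01) and LMNB2 by 0.22 ± 0.06 (-0.06), and FASN was not called (0.24 ± 0.09, adjusted p = 0.0862, edgeR).

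Hypoxia and glycolysis genes kept their median change with the offsets but not the calls. Of 17 tested members 8 rose, none fell, and the groups did not overlap in 11, where 8.28% of all tested genes rose and 5390 of 19556 did not overlap. The median log2 fold change was 0.388 without and 0.388 with the offsets, against 0.001 and -0.011 for all genes tested. ANGPTL4, a secreted inhibitor of lipoprotein lipase that is induced in hypoxia, is outside the list and had the largest rise of those named by size; it was at 8.77, 16.4 and 11.4 CPM in the blank and at 34.6, 40.6 and 22.8 CPM in the treated libraries (1.42 ± 0.40, adjusted p = 0.029, edgeR; 1.14 with the offsets, adjusted p = 0.224). SLC2A1, the glucose transporter GLUT1, was at 197.4, 288.7 and 222.6 CPM and then at 397.4, 399.3 and 312.1 CPM (0.65 ± 0.21, adjusted p = 0.0498; 0.47 with the offsets). In both genes the groups did not overlap, and treated replicate 3 was nearest to the blank.

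Of the other members, ANKRD37 (1.07 ± 0.24), CA9, a carbonic anhydrase (1.40 ± 0.38), ADM, the vasodilator adrenomedullin (0.70 ± 0.22), and the glycolytic enzymes PKM (0.27 ± 0.06), GAPDH (0.28 ± 0.08), ENO1 (0.26 ± 0.08) and ALDOA (0.72 ± 0.19) rose. CA9 was at 0.508 to 3.31 CPM, and ALDOA shares 42.3% of its exon bases with another gene on its strand, so its level of 6.19 to 14.1 CPM is uncertain. NDRG1, a gene induced by stress, was at 118.8, 195.8 and 133.2 CPM and at 287.6, 340.1 and 197.9 CPM and did not pass the test (0.88 ± 0.32, adjusted p = 0.0705, edgeR). MIR210HG, the host transcript of a hypoxia-induced microRNA, and DDIT4, an inhibitor of mTORC1, were outside the list and rose by 1.31 ± 0.26 and 0.86 ± 0.27. DDIT4 (63.0% GC) had an adjusted p of 0.0464 (edgeR) and, with the offsets, 0.57 (adjusted p = 0.363). Neither of these 2 genes was called with the offsets. With the offsets edgeR called 0 of the 17 members, with 10 at an unadjusted p under 0.05. DESeq2 without offsets called 13. Without blank replicate 1 or 3 no member was called, at medians of 0.349 and 0.405.

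The other low-dose libraries bear on these genes as well. As medians over the 17 members, the treated libraries stood 0.283, 0.295 and 0.037 (log2) from the mean of the 15 libraries and the blank libraries -0.428, -0.027 and -0.417. HCC+ 0.24 mg/mL replicates 2 and 3 were at 0.296 and 0.316 and replicate 1 at -0.354, and HCC- 0.24 mg/mL replicate 2 at 0.230. So the treated libraries did not stand above all others, and blank replicate 2 was again the blank library nearest to them. Against HCC+ 0.048 mg/mL 2 of the 17 rose and against HCC- 0.24 mg/mL 1 did.

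Genes of cholesterol synthesis and uptake, which the transcription factor SREBP2 switches on as a unit when sterols are scarce, were called only in part. Of 24 tested members 9 rose and 1 fell, where 8.28% of all genes tested rose and 8.16% fell. Called or not, 16 of the 24 were higher than in the blank, where 9795 of all 19556 genes tested were. With the offsets 20 of the 24 were higher, where 9209 of all genes tested were. The median was 0.098 without and 0.084 with the offsets, and CYP51A1 alone was called with the offsets (7 at an unadjusted p under 0.05). PMVK (0.40 ± 0.09) and MVD (0.41 ± 0.11), both enzymes of the mevalonate pathway, and SREBF2 (0.29 ± 0.07), which encodes SREBP2, rose, and these genes have a GC content of 57.0% to 63.4%. PMVK went from 23.8, 25.4 and 23.1 to 33.1, 30.5 and 32.0 CPM, without overlap, and had 0.12 with the offsets. SC5D, a late enzyme with 38.1% GC, fell by 0.39 ± 0.10. SQLE, the squalene epoxidase, with 40.6% GC, was not called (-0.07 ± 0.06, adjusted p = 0.459, edgeR).

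Lists of ribosomal proteins, amino acid supply and nuclear oxidative phosphorylation held members that rose and none that fell, while SDHD, outside the lists, and MT-ND1 and MT-ATP6 fell, as described above. Over all genes tested 8.28% rose and 8.16% fell, with a median of 0.001 (-0.011 with the offsets). Of 28 ribosomal protein genes 13 rose and none fell (median 0.191, and 0.070 with the offsets), among them RPS3 (0.22 ± 0.06, and 0.19 with the offsets, adjusted p = 0.0513) and RPLP1 (0.26 ± 0.07 and 0.19). Of 18 genes of amino acid supply and the integrated stress response 7 rose and none fell (median 0.244 and 0.051). PHGDH, which opens serine synthesis, rose from 401.8, 436.0 and 386.4 to 499.8, 479.5 and 487.8 CPM (0.26 ± 0.06, adjusted p = 0.00822, edgeR), and SLC7A5, a leucine transporter, and TRIB3, a pseudokinase induced by ATF4, rose by 0.29 ± 0.07 and 0.36 ± 0.10. Of 21 nuclear genes of oxidative phosphorylation 6 rose and none fell (median 0.151 and 0.067), with UQCRQ of complex III at 0.32 ± 0.08 (0.23 with the offsets). In each of these 3 lists edgeR called no member with the offsets, with 7, 4 and 3 members at an unadjusted p under 0.05.

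Immediate early genes, mostly transcription factors that respond to growth signals within minutes, gave 7 rises and no fall among 16 (median 0.346, and 0.088 with the offsets). Among all genes tested 8.28% rose and 8.16% fell. FOSL1 rose from 105.8, 143.1 and 116.2 to 178.7, 173.4 and 150.9 CPM (0.46 ± 0.11) and JUN from 18.0, 21.8 and 18.1 to 26.8, 29 and 23.9 CPM (0.46 ± 0.12). The 16 genes have a median GC content of 59.5%. None of them was called by edgeR with the offsets, where FOSL1 had 0.19 (adjusted p = 0.44). Targets of p53, a tumour suppressor that HCT-116 cells carry intact, moved in both directions without offsets, with 5 rises and 6 falls among 19 (median 0.035). None of the 19 was called by edgeR with the offsets, where 6 were higher than in the blank and the median was -0.052. GDF15, a stress cytokine, rose from 117.9, 159.0 and 115.5 to 209.5, 201.7 and 188.8 CPM (0.61 ± 0.12, adjusted p = 0.00732, edgeR; 0.36 with the offsets, adjusted p = 0.107). CDKN1A, the inhibitor p21, rose by 0.20 ± 0.06 and had -0.05 with the offsets, and MDM2, the ligase that degrades p53 (40.7% GC), fell by 0.28 ± 0.08.

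The cell cycle lists held genes called in both directions. Of 20 DNA replication genes 4 rose and 2 fell, and of 19 mitosis genes 3 rose and 5 fell. Over all genes tested 8.28% rose and 8.16% fell, so the falls among the DNA replication genes were near that share. CDT1 (65.8% GC), which licenses origins, and MCM5 (57.5% GC), of the replicative helicase, rose by 0.34 ± 0.08 and 0.27 ± 0.07. CENPE (34.5% GC), a kinetochore motor, and TOP2A (38.4% GC), a topoisomerase, fell (-0.49 ± 0.13 and -0.35 ± 0.09), and AURKB (56.3% GC), a mitotic kinase, rose by 0.24 ± 0.07. With the offsets edgeR called none in either list (3 and 0 at an unadjusted p under 0.05), and the medians were 0.013 and 0.011.

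Of 20 genes of vesicle uptake, the ESCRT machinery and tetraspanins 3 rose and 5 fell, where 8.28% of all genes tested rose and 8.16% fell. HGS (62.0% GC), an ESCRT subunit that sorts endosomal cargo, rose by 0.33 ± 0.08, and RAB5A (43.9% GC), a GTPase of early endosomes, fell from 47.7, 39.7 and 43.6 to 34.1, 34.1 and 35.1 CPM (-0.34 ± 0.09). RAB27B, a GTPase of vesicle secretion, fell by 0.66 ± 0.20 at 2.35 to 4.30 CPM. With the offsets edgeR called none (4 at an unadjusted p under 0.05) and the median was 0.012. Splicing regulators gave 5 falls and no rise among 16 (median -0.13, at a median GC content of 44.3%). None of the 16 was called by edgeR with the offsets, where 9 were higher than in the blank and the median was 0.017. SRSF2 fell from 268.1, 217.9 and 278.5 to 205.3, 203.4 and 196.8 CPM (-0.34 ± 0.08); at 51.6% GC it had -0.40 with the offsets (adjusted p = 0.152, edgeR), although 36.7% of its exon bases overlap a gene on the other strand.

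**Figure D5:**
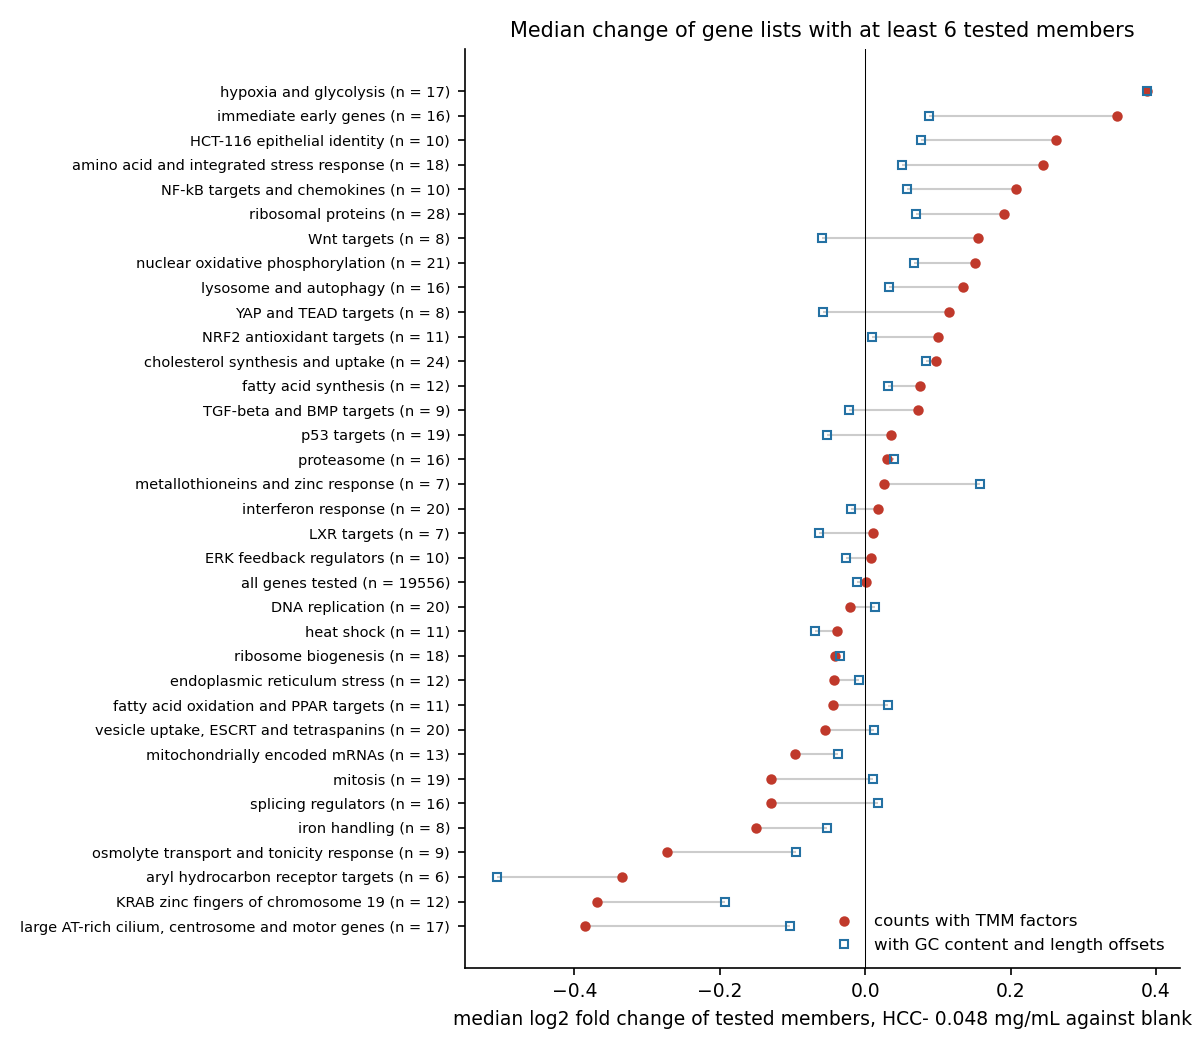
Median log2 fold change against the blank (x axis) of the tested members of each gene list with at least 6 of them (rows, n = tested members), without (red circles) and with (blue squares) GC content and length offsets; lines join the pair. Hypoxia and glycolysis stays at 0.388, while the AT-rich cilium, centrosome and motor genes go from -0.386 to -0.104 and immediate early genes from 0.346 to 0.088.

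Markers of the cell line and of other cell types were looked at beside these lists. Of 10 tested epithelial identity genes 5 rose and 1 fell, where 8.28% of all genes tested rose and 8.16% fell. Their median GC content was 57.6%, and their median change was 0.262 without and 0.077 with the offsets. None of the 10 was called by edgeR with the offsets, where ELF3 had 0.26 and EPCAM -0.13. KRT19 went from 602.5, 833.9 and 662.9 to 996.9, 1015 and 851.4 CPM (0.45 ± 0.11), ELF3, an epithelial transcription factor, rose by 0.46 ± 0.08, and EPCAM fell by 0.19 ± 0.06. In bulk RNA, more cells with a transcript and more transcript per cell cannot be told apart. Of 20 tested markers of endothelial, fibroblast, leukocyte, platelet, erythroid and liver cells edgeR and DESeq2 called none, with 2 at an unadjusted p under 0.05 by either. ALB, the serum albumin of hepatocytes, had 10, 5 and 0 counts in the blank and 4, 1 and 6 in the treated libraries, and AFP, APOB, HBB, PF4, PPBP, S100A8, S100A9, COL1A2 and COL3A1 had 0 counts in all 6. The summed liver markers were at 1.86 to 2.24 CPM in the blank and at 2.38 to 2.97 CPM in the treated libraries, nearly all of it SERPINA1, and the summed platelet markers at 27.5 to 31.7 and 29.8 to 32.8 CPM, mostly NRGN. Of 5 tested endothelial markers 4 were higher than in the blank, with a median of 0.794 (0.747 with the offsets). Their counts were low: KDR had 10, 2 and 8 in the blank and 16, 17 and 16 in the treated libraries. Of 5 tested leukocyte markers 1 was higher, with a median of -0.188 (-0.486 with the offsets). The part of all these markers in the results was not tested.

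By size, the largest rises after ANGPTL4 and MIR210HG among genes that averaged 1 log2 CPM or more over all 21 libraries and did not overlap were AATK (1.09 ± 0.21), ANKRD37 and MAGEB17, a cancer-testis gene (0.89 ± 0.27). MAGEB17 was at 0.677, 1.40 and 0.699 CPM in the blank and 2.04, 1.61 and 1.57 CPM in the treated libraries, and at 4.49 to 10.75 CPM in the 6 libraries at 1.2 mg/mL, the highest of all. AATK, a kinase of neurons, was at 1.39, 2.46 and 1.62 CPM in the blank and 3.19, 3.44 and 5.23 CPM in the treated libraries. Among the largest falls were those of HMGB1P10, a pseudogene that can share reads with HMGB1 (-0.98 ± 0.21), BCO2, a carotenoid-cleaving enzyme (-0.85 ± 0.22), TMEM170B (-0.77 ± 0.18) and IPMK, an inositol phosphate kinase (-0.71 ± 0.20). HMGB1P10 was at 6.77, 3.57 and 6.71 CPM and at 2.97, 3.38 and 2.21 CPM and was also called with the offsets (-0.92); AATK, MAGEB17, BCO2, TMEM170B and IPMK were not. Of the genes named for their change at 1.2 mg/mL of HCC- EVs, those called at 0.048 mg/mL were MAGEB17, PCLAF, a partner of the PCNA clamp (-0.59 ± 0.15), and the RNA DLEU2 (-0.55 ± 0.19).

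A pair of further contrasts of the same fit, whose spread is estimated over all 21 libraries, asked where HCC- EVs at 0.048 mg/mL differed from the other source at the same dose and from the next dose of the same source. They share the HCC- 0.048 mg/mL libraries with the comparison above, so their values are set side by side only. Against HCC+ 0.048 mg/mL 693 genes were called (3.54%), 481 higher (2.46%) and 212 lower (1.08%), and with the offsets 28 (0.143%). Against HCC- 0.24 mg/mL 1704 were called (8.71%), 950 higher (4.86%) and 754 lower (3.86%), and with the offsets 77 (0.394%). Scaled to the total count alone, the share of higher genes among the calls went from 69.4% to 41.6% and from 55.8% to 34.2%, so the balance of directions rests on the scaling. The GC trends of the libraries were 0.101, -0.179 and -0.18 for HCC+ 0.048 mg/mL and -0.266, 0.234 and -0.333 for HCC- 0.24 mg/mL, all below the 3 values of HCC- 0.048 mg/mL. Against HCC+ 0.048 mg/mL, leaving out HCC- 0.048 mg/mL replicate 1, 2 or 3 gave 2, 3 and 536 calls, and leaving out HCC+ 0.048 mg/mL replicate 1, 2 or 3 gave 258, 3 and 4. Against HCC- 0.24 mg/mL the same gave 2, 15 and 948 without an HCC- 0.048 mg/mL library and 245, 3124 and 2 without HCC- 0.24 mg/mL replicate 1, 2 or 3.

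The histone gene H3C6 was lower in both. It was at 0.879, 1.13 and 0.907 CPM with HCC- EVs at 0.048 mg/mL, at 2.96, 2.35 and 1.96 CPM with HCC+ EVs at that dose (-1.33 ± 0.24, adjusted p = 0.021, edgeR; -1.39 with the offsets, adjusted p = 0.0077) and at 1.47, 1.91 and 2.71 CPM with HCC- EVs at 0.24 mg/mL (-1.06 ± 0.25, adjusted p = 0.0156; -1.12 with the offsets, adjusted p = 0.0239). The blank libraries, at 1.56, 0.788 and 1.42 CPM, overlapped the HCC- 0.048 mg/mL ones (-0.34 ± 0.27, adjusted p = 0.43). H2AC6, another histone gene, was lower against HCC+ 0.048 mg/mL (-0.97 ± 0.18) and against HCC- 0.24 mg/mL (-0.87 ± 0.18) and was not called with the offsets (-0.87 and -0.75). Most histone mRNAs lack a poly(A) tail, and H2AC6 was at 2.77 to 7.32 CPM in these libraries.

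MT2A, a metallothionein that binds zinc and copper, was higher in both. It was at 464.2, 440.9 and 321.9 CPM, against 224.8, 256.4 and 254.4 CPM with HCC+ EVs at 0.048 mg/mL (0.74 ± 0.18, adjusted p = 0.0406, edgeR) and 268.0, 271.1 and 194.3 CPM with HCC- EVs at 0.24 mg/mL (0.74 ± 0.18, adjusted p = 0.0263). The blank libraries were at 276.1, 384.1 and 271.9 CPM and overlapped it (0.40 ± 0.18, adjusted p = 0.144). With the offsets the 3 values were 0.57, 0.55 and 0.19, and none was called. Against HCC+ 0.048 mg/mL MT1E, a second metallothionein (0.67 ± 0.15), ALDOA (0.95 ± 0.19) and PPDPF (70.1% GC; 0.66 ± 0.12, and 0.34 with the offsets, adjusted p = 0.0483, edgeR) were also higher. Against HCC- 0.24 mg/mL CHRNB4, an acetylcholine receptor subunit, was higher (0.72 ± 0.20), and BCO2 (-0.94 ± 0.21) and SLCO1B3, a bile acid transporter with 54.5% of its exon bases shared with another gene (-0.97 ± 0.29), were lower.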

How the data were processed

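Poly(A) RNA of HCT-116 cells was sequenced from NEBNext Ultra II libraries, per the labels' protocols. The authors deposited a table of raw counts per Ensembl gene; cutadapt 3.4, HISAT2 2.2.1, featureCounts 2.0.1 and GRCh38 are named, with no order, per the submitters' processing notes. The annotation release, the strand setting and the treatment of reads with several matches were not given in the sources used here. Depth was 31219343 to 64012757 counts per library, and no 2 columns were identical.

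From the deposited counts, genes were filtered with filterByExpr and scaled with TMM factors. They were tested in edgeR 4.0.16 (R 4.3.3) with the quasi-likelihood test over all 21 libraries and 7 group means (14 residual degrees of freedom, biological coefficient of variation 0.0885), with Benjamini-Hochberg adjustment at 0.05 over 19556 genes. The SE is the absolute log2 fold change divided by the square root of F. GC content and exon length came from the GENCODE v29 transcripts (mean over the transcripts of a gene) and were known for 99.7% of the tested genes. Offsets were natural splines with 4 degrees of freedom, set per library on 11168 genes that averaged 2 log2 CPM or more. DESeq2 1.42.0, other scalings and filters, a replicate block, GC content alone, the 2 groups alone and leaving out each library were alternatives; GC content alone and leave-one-out with the offsets were added after seeing the data. The scripts were tested on simulated counts.

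The members and gene lists were chosen with earlier results of these data known. Genes were named by rule: the largest changes against the blank with at least 1 log2 CPM and no overlap (up to 10 per direction, and 5 for the other comparisons), the called list members with the smallest p (up to 4 a list), the 2 most abundant members of each list, all markers of other cell types, the 5 most abundant genes of the lowest and highest of 10 GC bins, and the 10 largest changes per direction at 1.2 mg/mL. Genes called with offsets were chosen after their values were seen, as were the list members ADM, EPCAM, MDM2, MVD, NDRG1, RAB27B, RPLP1, RPS3, SC5D, SLC2A1, SQLE, TRIB3, NOP58, PES1, RRP12 and UTP20, which this rule does not name. Symbols were taken from a name table that matched 58472 of 65065 identifiers.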

Additional observations from a re-analysis of the deposited data

Results flagged for a closer look

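HCC- 0.048 mg/mL differed from 2 other EV groups in contrasts between EV groups, fitted over all 21 libraries, which is what brought these results here. They share the HCC- 0.048 mg/mL libraries. Against the other source at the same dose 693 genes were called by edgeR's quasi-likelihood test, and against the next dose of the same source 1704 were. ALDOA (log2 difference 0.95), MT2A (0.74), MT1E (0.67) and PPDPF (0.66) were higher than with HCC+ EVs at 0.048 mg/mL, and H3C6 (-1.33) and H2AC6 (-0.97) were lower. MT2A (0.74) and CHRNB4 (0.72) were higher than with HCC- EVs at 0.24 mg/mL, and H3C6 (-1.06), SLCO1B3 (-0.97), BCO2 (-0.94) and H2AC6 (-0.87) were lower. Of these 12 values only those of PPDPF and of H3C6, in both comparisons, passed the test with GC content and length offsets. SLCO1B3 was at 1.30, 1.72 and 1.45 CPM and at 2.74, 2.52 and 3.55 CPM with HCC- EVs at 0.24 mg/mL, and CHRNB4 at 2.81, 2.72 and 2.33 CPM and at 1.44, 1.58 and 1.74 CPM, so both are low. No group had more than 3 libraries, so single libraries were not searched for outlying values.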

How the results depend on the processing

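Calls against the blank (3216) went to 48 with GC content and length offsets, 48 with GC content offsets alone, 143 with the offsets and the replicate block, and 1976 with only the 2 groups, and ranged from 1 to 5726 with 1 library left out. The 48 calls with offsets ranged from 2 to 446 with 1 library left out and became 143 with the replicate block. Calls against HCC+ 0.048 mg/mL (693) went to 28, 17 and 50 under those 3 offset fits in that order, 1483 without a filter, 1091 with the replicate block, 3641 with only the 2 groups and 2091 by DESeq2, and ranged from 2 to 536 with 1 library left out. Calls against HCC- 0.24 mg/mL (1704) went to 77, 92 and 169 under the offset fits, 3071 with only the 2 groups and 2968 by DESeq2, and ranged from 2 to 3124. Called members of the gene lists (167) went to 2, 1 and 10 and ranged from 0 to 255, and called named genes (133) went to 3, 2 and 9 and ranged from 0 to 144. Under the same 3 fits the sign turned for BSG (-0.0107, -0.0116 and -0.0110), CCT6A (0.05003, 0.0568 and 0.0507), CDKN1A (-0.0517, -0.0413 and -0.0510) and LMNB2 (-0.0644, -0.0807 and -0.0638). The difference in GC trend (0.584) became 1.151 over genes that averaged 5 log2 CPM or more and kept its direction. Apart from the offsets, which remove the trend by construction, and fits with fewer libraries, the cause was not tested. Of 2174 other settings of 145 gene values, 1426 kept the call, 695 lost it, 41 gained one and 12 turned sign. Residuals of same-numbered HCC- 0.048 mg/mL and blank libraries over all tested genes correlated at 0.007, 0.013 and 0.006, and the replicate block gave 3418 calls against the blank. The GC trend was positive in replicate 2 of the blank (0.275), HCC- 0.24 mg/mL (0.234) and HCC+ 0.24 mg/mL (0.157). It was negative in replicates 1 and 3 of these groups. The HCC- and HCC+ 0.048 mg/mL groups did not share that order. Whether same-numbered libraries were prepared together was not tested. Genes of few counts, such as ENSG00000261542, are limited by depth.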

Other observations

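Further gene lists held members called in both directions or few of them, by edgeR's quasi-likelihood test without offsets, where 8.28% of all tested genes rose and 8.16% fell. In lysosome and autophagy 4 of 16 tested members rose and 1 fell. TFEB, the transcription factor that drives lysosomal genes, went from 5.04, 6.28 and 3.92 to 7.76, 6.43 and 9.10 CPM (0.61 ± 0.15, and 0.35 with GC content and length offsets), and SQSTM1, an autophagy receptor, rose by 0.25 ± 0.06 (0.01). LAMP2, a lysosomal membrane protein with 39.9% GC, fell by 0.28 ± 0.07 (-0.02). In ribosome biogenesis 5 of 18 rose and 4 fell. The rises were in BOP1, RRP9, FBL, RRP12 and PES1, with a GC content of 55.8% to 65.1%, and the falls in GNL3, NPM1, NOP58 and UTP20, with 39.3% to 43.9%. BOP1, a processing factor of the large subunit, was at 229.3, 326.4 and 261.3 and then 358.8, 336.8 and 338.6 CPM (0.34 ± 0.08, and 0.05 with the offsets). NPM1, the nucleolar protein nucleophosmin, was at 2456, 2113 and 2282 and then 1981, 1895 and 1818 CPM (-0.27 ± 0.07, and -0.07).

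Among KRAB zinc finger repressors of chromosome 19, 5 of 12 fell and none rose, with a median of -0.369 and of -0.193 with the offsets. ZNF714 went from 29.96, 24.14 and 32.34 to 22.09, 22.55 and 21.70 CPM (-0.38 ± 0.10, and -0.16); such genes are close copies of each other, so their counts are uncertain. Iron handling gave 2 falls among 8, in IREB2, a regulator of iron-responsive mRNAs (-0.31 ± 0.07, and -0.15), and NCOA4, the ferritin receptor of autophagy (-0.21 ± 0.06, and -0.09). In the interferon response 2 of 20 rose, near the share of all tested genes (8.28%). They were ISG15, a ubiquitin-like protein (0.36 ± 0.07, and 0.02), and OAS3, a sensor of double-stranded RNA (0.23 ± 0.07, and 0.09). Of 7 LXR targets and 8 YAP and TEAD targets edgeR called none, with 0 and 3 at an unadjusted p under 0.05; DESeq2 called 0 and 1. All 6 tested targets of the aryl hydrocarbon receptor were lower than in the blank, with 1 called (median -0.334). With the offsets their median was -0.506 and 0 were called.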
